A study of Mus musculus with 6 samples.

Results

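Liver X receptors (LXRs) are represented here by 9 genes: the receptor genes Nr1h2 and Nr1h3, and the LXR target genes for sterol efflux and lipid remodelling Abca1, Abcg1, Mylip, Srebf1, Scd1, Scd2 and Lpcat3. They were taken by symbol from a table of 28822 mouse genes, of which 15567 were expressed enough to be tested, and all 9 passed that filter. The libraries came from mouse bone marrow-derived macrophages (BMDMs), cultured above HT22 hippocampal neuronal cells in a Transwell, in which the HT22 cells had first been deprived of oxygen and glucose for 2 h. The treated group received BW723C86, an agonist of the serotonin receptor 5-HT2B (3 libraries), and the control group received the vehicle DMSO (3 libraries), so that the injured HT22 cells were shared by both groups. Both cell types stand in each sample label, the RNA came from the upper chamber, and the series design also allows BV2 microglial cells there. The dose, the length of treatment, the animals' strain and age and the number of separate cultures are left unstated by the labels.

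LXRs are nuclear receptors that are switched on by oxysterols, the oxidised forms of cholesterol, and by the cholesterol precursor desmosterol. They sit on DNA as heterodimers with retinoid X receptors (RXRs), with co-repressors bound until a ligand arrives. In macrophages, which take up cholesterol with engulfed cells and lipoproteins, active LXR raises transporters that pass cholesterol to lipoprotein acceptors, limits lipoprotein uptake, and turns on fatty acid desaturation and membrane phospholipid remodelling. LXR binds a DR4 element, a direct repeat of the hexamer AGGTCA with a spacer of 4 bases.

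In the treated libraries, 5 of the 9 genes rose (Abca1, Abcg1, Srebf1, Scd1 and Scd2), 1 fell (Mylip), and Nr1h2, Nr1h3 and Lpcat3 did not pass the test (edgeR's quasi-likelihood test, adjusted p below 0.05 over all genes tested). Of all 15567 genes tested 42% passed, 21.3% higher and 20.7% lower, so that many genes outside the LXR pathway moved as well. Scd1 stood out in size, at 4.91-fold, and was the only member both past the threshold and changed at least 2-fold, as were 8.45% of all genes tested; Scd2 followed at 1.89-fold. The transporters Abca1 and Abcg1 rose by only 1.22-fold and 1.2-fold, and the receptor genes themselves did not pass.

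Levels are given as CPM, in which library totals are adjusted by edgeR's trimmed mean of M-values (TMM), and fold changes are BW723C86 over DMSO with the standard error (SE) of the log2 value. Total counts were 59971346 to 72562020 in BW723C86 libraries and 58841307 to 75931615 in DMSO libraries. The 9 macrophage markers were abundant, summing to 32300 to 33400 CPM with BW723C86 and 35700 to 36600 CPM in DMSO, with Lyz2 making up most of both. They changed in both directions, with 4 higher, among them Csf1r (log2 fold change 0.53), and 3 lower, among them Adgre1 (-0.82). The 7 neuronal markers measured summed to 0.556 to 0.878 CPM with BW723C86 and 0.347 to 0.613 CPM in DMSO, and Map2 and Nefl had no count in any library. Of microglial genes, Tmem119 averaged 4.28 ± 0.493 CPM with BW723C86 and 28.3 ± 2.75 CPM in DMSO (SD, n = 3 each). One treated library, BW723C86 replicate 2, stood apart. Divided by its degrees of freedom, the chi-square of its counts was 35.5 against replicate 1 and 24.36 against replicate 3, while those 2 libraries gave 11.08 and pairs of DMSO libraries 9.83 to 10.43. Its deviations from the group mean, as medians on the log2 scale, were 0.076 for the 3797 genes of lowest GC content and -0.099 for the 3797 of highest GC content (54.33% to 75.46%), a class that holds Nr1h2, Nr1h3 and Srebf1, each at its lowest treated value in that library. Without it, 6 of the 9 genes were higher and 1 lower. Genes listed as markers of other blood cells moved with the treatment, where 21.3% of all genes tested rose and 20.7% fell. The 12 neutrophil markers summed to 709 to 814 CPM with BW723C86 and 2630 to 2710 CPM in DMSO, and all 9 tested fell. Mmp8 alone made up most of both sums, at a mean of 716 CPM with BW723C86 and 2420 CPM in DMSO. The 8 monocyte markers summed to 1480 to 1610 CPM with BW723C86 and 6020 to 6100 CPM in DMSO, and all 8 fell. Most of both sums was Chil3 (mean 1100 CPM with BW723C86 and 3200 CPM in DMSO) and Fn1 (243 and 2170 CPM). The 10 dendritic cell markers summed to 4550 to 4870 CPM with BW723C86 and 943 to 946 CPM in DMSO, and 6 of 8 tested rose. Nearly all of both sums was Itgax (mean 2360 CPM with BW723C86 and 471 CPM in DMSO) and H2-Aa (2300 and 428 CPM). Markers of mast cells and lymphocytes summed to 56.2 to 60.7 CPM with BW723C86 and 104 to 110 CPM in DMSO, and 6 of 7 tested fell. None of these 4 lists had a marker at 0 in every library, but some markers had very few counts. Retnlg, a neutrophil marker, had no count with BW723C86 and 4, 11 and 0 counts in DMSO libraries. Xcr1, a dendritic cell marker, had at most 6 counts in a library. Cd3e, a lymphocyte marker, had 4 counts in DMSO replicate 2 and none elsewhere. Whether cells of these types were present was not tested. The part of these markers in the results below was not tested, and in bulk samples fewer cells of a type and less RNA per cell cannot be told apart.

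Promoter windows of RefSeq (build GRCm38.p6, the 250 bases before an annotated start) were at hand for 6 of the 9 genes in 9 windows: Nr1h2, Nr1h3, Abca1, Mylip, Srebf1 and Lpcat3. They are shown for Abca1 and Srebf1 because these are the 2 members whose windows held a DR4 match, and both genes rose. The search was for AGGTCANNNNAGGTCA on both strands with at most 3 mismatches over both hexamers, and capitals mark the match, which lies on the opposite strand to the gene in each. The Abca1 window is chr4:53159896-53160145, minus strand, and the Srebf1 window is chr11:60210472-60210721, minus strand, the most downstream of 3 annotated Srebf1 starts.
Abca1: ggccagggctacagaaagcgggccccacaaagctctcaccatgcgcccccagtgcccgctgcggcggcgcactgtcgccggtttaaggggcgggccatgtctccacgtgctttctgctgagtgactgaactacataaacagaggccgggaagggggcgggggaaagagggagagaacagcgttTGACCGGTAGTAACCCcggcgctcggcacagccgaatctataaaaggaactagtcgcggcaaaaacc
Srebf1: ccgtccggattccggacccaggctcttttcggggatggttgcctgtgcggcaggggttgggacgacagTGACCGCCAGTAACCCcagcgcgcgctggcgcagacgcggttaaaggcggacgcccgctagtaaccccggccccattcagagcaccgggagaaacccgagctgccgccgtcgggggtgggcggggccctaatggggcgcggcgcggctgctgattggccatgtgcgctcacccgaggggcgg

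A DR4 match this loose was held by 18.5% of all 32851 promoter windows, and 2 of the 9 member windows held one, a share near that background. The Abca1 match covers bases 67 to 52 before the start and the Srebf1 match bases 182 to 167. Read on the strand of the motif, they were identical at 14 of 16 bases and at all 12 bases of the hexamers, differing only in the spacer. The exact pair of hexamers they share, GGGTTANNNNCGGTCA, a pattern chosen after the matches were seen, occurred in 3 of the 32851 windows (0.00913%), and the third was that of Fasn, the fatty acid synthase gene, which is not a member. The 3 matches are printed here on the strand of the motif, with the hexamers in capitals and the spacer in lower case.
Abca1: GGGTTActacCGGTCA
Fasn: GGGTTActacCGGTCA
Srebf1: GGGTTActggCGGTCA

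The Fasn match lies at chr11:120824757-120824772, at bases 225 to 210 before the start, and all 16 of its bases are those of Abca1. Fasn had 213, 188 and 206 CPM in BW723C86 libraries and 137, 141 and 133 CPM in DMSO libraries, with no overlap between groups (log2 fold change 0.56, SE 0.05, adjusted p = 2.3e-06). Since the pattern was taken from 2 members that rose, it carries no test, and of all genes tested 21.3% rose. Of the other motifs searched on both strands, the sterol regulatory element TCACNCCAC, by which SREBP proteins bind, had no match in the 9 windows (1.05% of all windows hold it), and the E-box CACGTG had a single match, in Abca1 (6.02% of all windows). The CCAAT box (CCAAT) was found in Mylip, Lpcat3 and 2 of the 3 Srebf1 windows, against 33.8% of all windows. The GC box (GGGCGG) was found in Abca1, Mylip, Lpcat3 and 2 of the 3 Srebf1 windows, against 32.7% of all windows.

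The receptor genes came first in the comparison. Nr1h2 (ENSMUSG00000060601) encodes LXR beta, which is expressed in most tissues. It had 133, 109 and 121 CPM in BW723C86 libraries and 131, 135 and 132 CPM in DMSO libraries. The groups overlapped, since BW723C86 replicate 1 stood among the DMSO libraries while replicates 2 and 3 stood below them. Its log2 fold change of -0.13 (SE 0.06) did not pass (adjusted p = 0.11), but it did pass without BW723C86 replicate 1 (-0.21, adjusted p = 0.0078), with library totals in place of TMM (-0.21, adjusted p = 0.0091) and with trends in GC content and length removed (-0.22, adjusted p = 8.6e-05). Without BW723C86 replicate 2 its log2 fold change was smaller, at -0.08 (adjusted p = 0.14).

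Nr1h3 (ENSMUSG00000002108) encodes LXR alpha, the isoform of liver, fat and macrophages, and in human macrophages LXR alpha is itself an LXR target. It had 16.9, 12.7 and 14.9 CPM in BW723C86 libraries and 14.9, 13.2 and 13.2 CPM in DMSO libraries, so that BW723C86 replicate 2 was the lowest of all and replicate 1 the highest. The log2 fold change of 0.1 (SE 0.11, adjusted p = 0.48) had a 95% interval of -0.13 to 0.34, so that either direction lay within it. The value rested on single treated libraries: it was 0.19 without BW723C86 replicate 2 (adjusted p = 0.13), and without BW723C86 replicate 1 it was 0 to 2 decimals, on the negative side (adjusted p = 0.98). It was 0.03 with library totals and 0.02 with trends in GC content and length removed. Per length, Nr1h3 made up 13.9% ± 0.54 of the counts per kb of both receptors with BW723C86 and 12.1% ± 0.9 in DMSO (SD, n = 3 each), so that Nr1h2 was the main LXR transcript in both groups. The ratio of Nr1h3 to Nr1h2 counts was 0.127, 0.116 and 0.122 with BW723C86 and 0.114, 0.0974 and 0.0996 in DMSO. These ratios did not overlap between groups, with a mean difference of 0.23 on the log2 scale (two-sided exact permutation p = 0.1, the smallest that 3 against 3 samples allow).

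**Figure D1:**
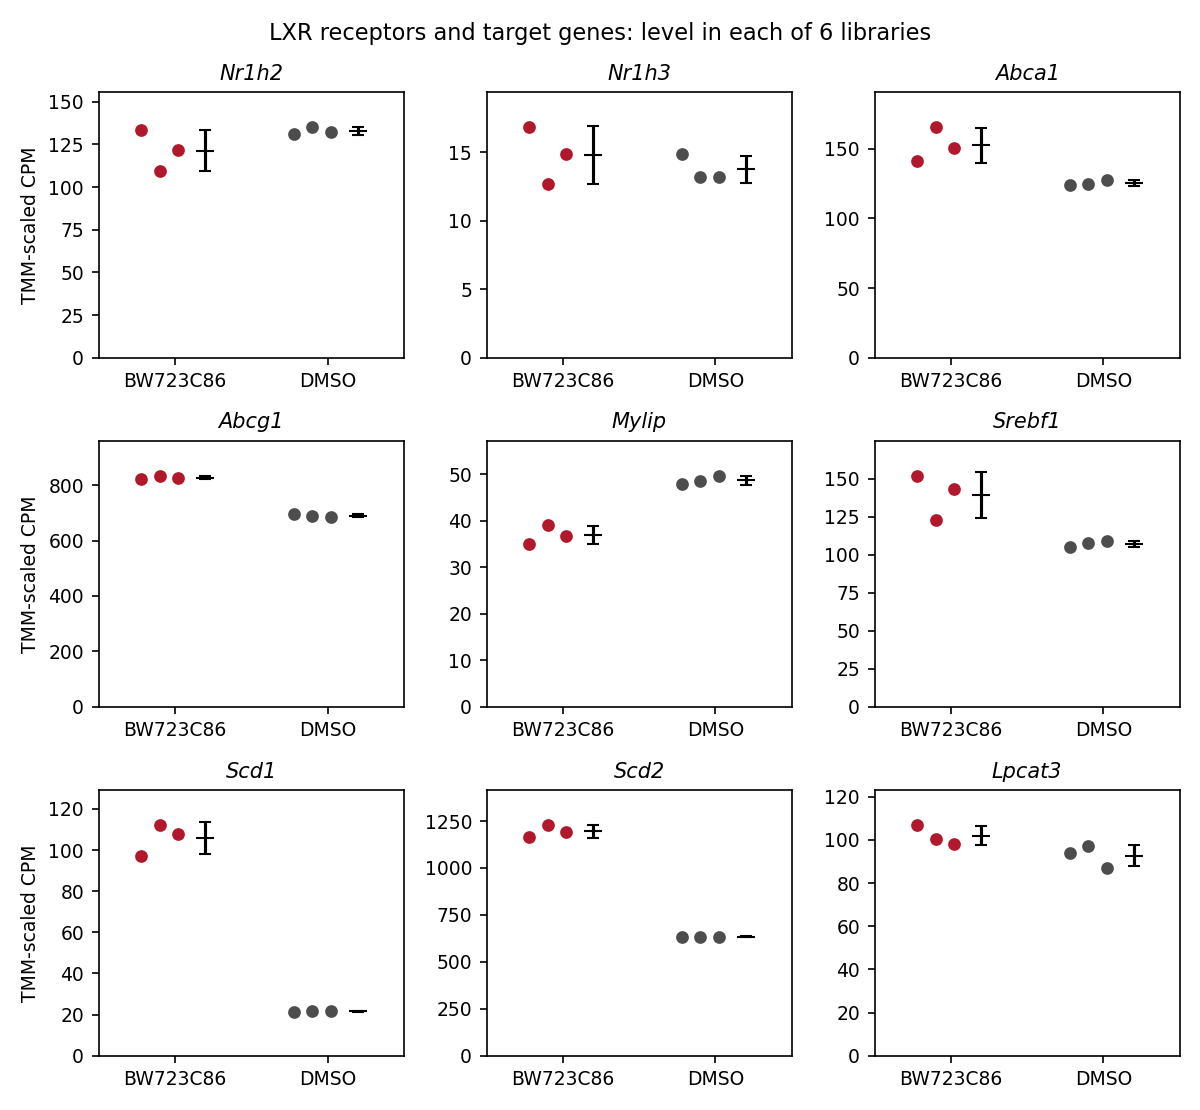
TMM-scaled CPM of the 9 genes in each of 6 libraries, with BW723C86 (red) left of DMSO (grey), replicates 1 to 3 from left to right, and the mean ± SD (n = 3) in black; every axis starts at 0. Groups are apart for 7 genes and overlap for Nr1h2 and Nr1h3, and by SD the BW723C86 libraries are more spread than DMSO libraries for every gene except Lpcat3.

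Both transporters of cholesterol efflux rose slightly. Abca1 (ENSMUSG00000015243), the ATP-binding cassette transporter that loads cholesterol and phospholipid onto lipid-poor apolipoprotein A-I, had 141, 166 and 150 CPM in BW723C86 libraries and 124, 125 and 128 CPM in DMSO libraries. The groups did not overlap, and BW723C86 replicate 2 was the highest library. The log2 fold change was 0.28 (SE 0.06, adjusted p = 0.0014), and 0.2 without BW723C86 replicate 2 (adjusted p = 0.00058). Abcg1 (ENSMUSG00000024030), which passes cholesterol to high-density lipoprotein particles, had 821, 834 and 825 CPM in BW723C86 libraries and 695, 688 and 686 CPM in DMSO libraries. Its libraries were tight within each group and far apart between groups, so that a change of 0.26 on the log2 scale (SE 0.04) passed with adjusted p = 0.00018, and at 0.15 with trends in GC content and length removed (adjusted p = 0.00092). Neither transporter passed a test of whether its change exceeds 1.2-fold (adjusted p = 0.43 for Abca1 and 0.6 for Abcg1).

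The pair kept nearly the same proportion in both groups. Abcg1 counts were 5.82, 5.03 and 5.49 times those of Abca1 with BW723C86 and 5.62, 5.53 and 5.37 times in DMSO, a difference of -0.02 on the log2 scale (two-sided exact permutation p = 0.8; at 3 against 3, p cannot go below 0.1). The DMSO ratios fell inside the range of the BW723C86 ratios, and without BW723C86 replicate 2 the difference was 0.04 on the log2 scale. Per length, Abcg1 made up 88.5% ± 0.75 of the counts per kb of both transporters with BW723C86 and 88.7% ± 0.23 in DMSO (SD, n = 3 each).

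Mylip (ENSMUSG00000038175) was the member that fell. It encodes IDOL, a ubiquitin ligase that marks lipoprotein receptors for degradation and that LXR normally induces. It had 35, 39.1 and 36.7 CPM in BW723C86 libraries and 47.8, 48.4 and 49.7 CPM in DMSO libraries, with every BW723C86 library below every DMSO library. The log2 fold change was -0.4 (SE 0.06, adjusted p = 0.00012), and it passed in each of the 18 alternative fits, at -0.47 to -0.36. Among the receptors that IDOL acts on, Lrp8, encoding apolipoprotein E receptor 2, had 16.1, 16.2 and 16.7 CPM in BW723C86 libraries and 14.3, 13.3 and 13.4 CPM in DMSO libraries and rose (log2 fold change 0.25, adjusted p = 0.019). Vldlr, encoding the VLDL receptor, stood at 0.774 ± 0.0709 CPM with BW723C86 and 1.16 ± 0.3 CPM in DMSO and did not pass (adjusted p = 0.13). The call on Lrp8 was lost in 5 of 18 alternatives, among them without BW723C86 replicate 3 and without DMSO replicate 2 or 3 (0.23 to 0.24, adjusted p = 0.071 to 0.082).

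Srebf1 (ENSMUSG00000020538) encodes the SREBP-1 proteins, of which SREBP-1c is the factor by which LXR drives fatty acid synthesis; the gene counts do not separate its isoforms. It had 152, 123 and 143 CPM in BW723C86 libraries and 105, 108 and 109 CPM in DMSO libraries. The groups did not overlap, although BW723C86 replicate 2 lay nearest to DMSO. The log2 fold change was 0.38 (SE 0.07, adjusted p = 0.00052), 0.44 without that replicate (adjusted p = 2.1e-07), and it missed the threshold in the test for a change beyond 1.2-fold (adjusted p = 0.072). Its relative Srebf2, encoding the factor for cholesterol synthesis, rose by 0.16 (SE 0.05, adjusted p = 0.014). That call was lost in 6 of 18 alternatives, among them without BW723C86 replicate 3 and without DMSO replicate 1 or 3, and over the alternatives its value ran between 0.06 and 0.19. The ratio of Srebf1 to Srebf2 counts was 0.753, 0.655 and 0.726 with BW723C86 and 0.625, 0.594 and 0.626 in DMSO, which did not overlap (difference of 0.21 on the log2 scale, two-sided exact permutation p = 0.1, the smallest possible). In the annotation, 1.93% of the exonic bases of Srebf1 overlap Rai1 on the opposite strand, and the labels do not say if reads were assigned by strand.

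The stearoyl-CoA desaturase genes changed most among the members. These enzymes place the double bond that turns saturated into monounsaturated fatty acids, for membrane lipids and for the cholesteryl esters of lipid droplets. Scd1 (ENSMUSG00000037071) had 97.2, 112 and 108 CPM in BW723C86 libraries and 21.4, 21.6 and 21.6 CPM in DMSO libraries, and Scd2 (ENSMUSG00000025203) had 1160, 1230 and 1190 CPM in BW723C86 libraries and 634, 633 and 630 CPM in DMSO libraries. Neither gene overlapped between groups, and the DMSO values of each were almost the same. The log2 fold change was 2.3 for Scd1 (SE 0.06, adjusted p = 1.4e-11) and 0.92 for Scd2 (SE 0.04, adjusted p = 2.1e-09). Ordered by p over all genes tested, Scd1 stood at rank 44 and Scd2 at rank 232 of 15567. Both passed in each of the 18 alternatives, Scd1 at 2.22 to 2.35 and Scd2 at 0.84 to 0.93.

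The 2 desaturase genes changed unequally. Scd2 counts were 12, 11 and 11.1 times those of Scd1 with BW723C86 and 29.7, 29.3 and 29.2 times in DMSO, a difference of -1.37 on the log2 scale with no overlap (two-sided exact permutation p = 0.1, the smallest possible). Per length, Scd1 made up 8.96% ± 0.39 of the counts per kb of the 4 Scd genes with BW723C86 and 3.66% ± 0.028 in DMSO, so that Scd2 remained the main desaturase transcript in both groups (90.9% ± 0.36 with BW723C86 and 96.3% ± 0.063 in DMSO; SD, n = 3 each). The summed level of the 4 genes was 233, 249 and 241 CPM per kb with BW723C86 and 121, 121 and 120 CPM per kb in DMSO. Scd4 was low, at 1.16 ± 0.494 CPM with BW723C86 and 0.356 ± 0.238 CPM in DMSO, and rose by 1.73 on the log2 scale (SE 0.49, adjusted p = 0.013), a call lost without DMSO replicate 1 or 3. Its groups overlapped, since BW723C86 replicate 3 (0.591 CPM) lay below DMSO replicate 2 (0.63 CPM). Scd3 had at most 5 counts in a library and was not tested. The Scd genes are close paralogs, and 3.15% of the 75-base words of the Scd1 transcripts and 1.78% of those of Scd2 occur in another gene, so that counts there may be split between copies.

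**Figure D2:**
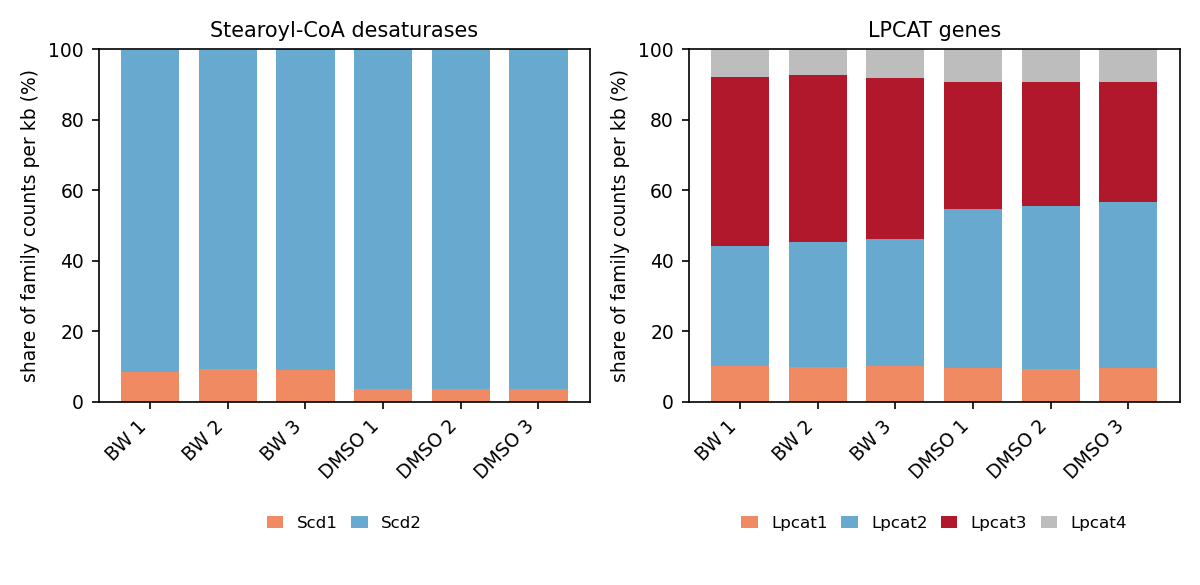
Share of counts per kb within a gene family (%) in each library, BW723C86 replicates left of DMSO replicates. At left, Scd1 and Scd2 as shares of the 4 Scd genes (Scd3 and Scd4, too small to see, are not drawn), with Scd1 at 8.52% to 9.24% with BW723C86 and 3.63% to 3.68% in DMSO; at right, the 4 Lpcat genes, with Lpcat3 at 45.7% to 47.8% with BW723C86 and 34% to 36% in DMSO.

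Lpcat3 (ENSMUSG00000004270) encodes the acyltransferase that places polyunsaturated chains into membrane phospholipids. It had 107, 101 and 98.3 CPM in BW723C86 libraries and 94.1, 97.1 and 87.2 CPM in DMSO libraries. The groups did not overlap but lay close, and the log2 fold change of 0.14 (SE 0.05) missed the threshold at adjusted p = 0.058. It passed narrowly in 4 of 18 alternatives, among them without BW723C86 replicate 2 (0.13, adjusted p = 0.046). In other alternatives it shrank, to 0.09 without DMSO replicate 3 (adjusted p = 0.27), 0.06 with library totals (adjusted p = 0.37) and 0.04 with trends in GC content and length removed (adjusted p = 0.49). Another gene, Emg1, overlaps 10.2% of its exonic bases on the opposite strand, so its counts may hold reads of both. Groups did not overlap for 7 of the 9 members, against 52.3% of all genes tested.

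Of 5 other lysophospholipid acyltransferases tested, none rose and 4 fell (Lpcat1, Lpcat2, Lpcat4 and Mboat1), against 21.3% and 20.7% of all genes tested. The median log2 fold change of the 5 was -0.36, against 0.0042 for all genes tested. Mboat7 did not pass at a log2 fold change of 0.11 (adjusted p = 0.074) but did pass without BW723C86 replicate 2. Lpcat2, whose product also makes platelet-activating factor, fell to 79.1 ± 1.29 CPM with BW723C86, against 127 ± 5.38 CPM in DMSO (log2 fold change -0.68, SE 0.05, adjusted p = 1.2e-07), and Lpcat4 fell by 0.54 (adjusted p = 0.00013). The falls of Lpcat1 (-0.19, adjusted p = 0.02) and Mboat1 (-0.36, adjusted p = 0.049) were lost in 3 and 10 of 18 alternatives. Lpcat1 missed the threshold without DMSO replicate 1 or 2, and Mboat1 without any 1 library other than BW723C86 replicate 2. Per length, Lpcat3 made up 46.9% ± 1.1 of the counts per kb of the 4 Lpcat genes with BW723C86 and 35% ± 1 in DMSO, and Lpcat2 made up 35.1% ± 1 with BW723C86 and 46.2% ± 1 in DMSO (SD, n = 3 each), so that the order of these 2 genes was exchanged between the groups.

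Compared per length, the 9 genes covered a wide range of levels. With BW723C86, the order of mean CPM per kb was Scd2 (219 ± 6.22), Abcg1 (113 ± 0.895), Nr1h2 (36.2 ± 3.58), Lpcat3 (31.2 ± 1.4), Srebf1 (24.7 ± 2.65), Scd1 (21.6 ± 1.59), Abca1 (14.7 ± 1.21), Mylip (11.4 ± 0.631) and Nr1h3 (5.88 ± 0.838; SD, n = 3). The ranges of Nr1h2 and Lpcat3 overlapped, as did those of Srebf1 and Scd1, and the other neighbours were apart. In DMSO the order was the same for the first 5 genes, followed by Mylip (15 ± 0.29), Abca1 (12.1 ± 0.211), Nr1h3 (5.47 ± 0.397) and Scd1 (4.4 ± 0.0254), and no neighbours overlapped. Scd1 was thus the lowest of the 9 genes in DMSO and the sixth with BW723C86.

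**Figure D3:**
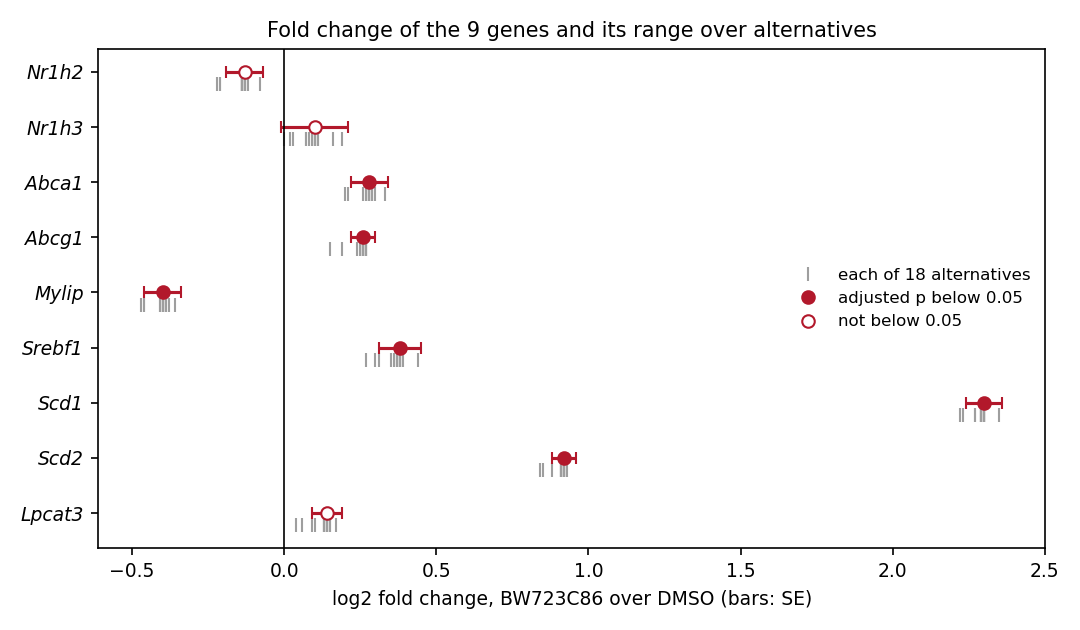
Log2 fold change of the 9 genes, BW723C86 over DMSO, with its SE (points and bars; filled where the adjusted p was below 0.05), and below each point the value in each of the 18 alternative fits (grey ticks). Scd1 (2.3) and Scd2 (0.92) lie far to the right, Mylip (-0.4) is the only filled point to the left of 0, and the other 3 filled points lie between 0.26 and 0.38.

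Other known LXR targets in macrophages went both ways. Of 13 tested, 6 rose, 5 fell and 2 did not pass (median log2 fold change 0.09). Over all genes tested, 21.3% rose and 20.7% fell. Pltp, encoding the phospholipid transfer protein, had 162, 134 and 149 CPM in BW723C86 libraries and 42.5, 40.9 and 39.6 CPM in DMSO libraries (log2 fold change 1.86, SE 0.07, adjusted p = 1.8e-10). The lipoprotein lipase gene Lpl rose by 1.49 (SE 0.05) and Mertk, a receptor for apoptotic cells, by 0.79 (SE 0.05), besides Fasn. By contrast the apolipoprotein genes fell: Apoe by 1.5 (SE 0.05) and Apoc2, encoding the activator of lipoprotein lipase, by 2.1 (SE 0.12, adjusted p = 2.6e-08), to 3.05 ± 0.42 CPM with BW723C86, against 13 ± 0.76 CPM in DMSO. Cd5l, encoding a secreted survival factor of macrophages, fell by 1.11 (SE 0.19, adjusted p = 0.00039). Arl4c, encoding a small GTPase of membrane traffic, had 308, 306 and 301 CPM with BW723C86 and 376, 374 and 381 CPM in DMSO (log2 fold change -0.31, adjusted p = 5e-05). Apoc1 was the fifth that fell, at no more than 4 counts per library with BW723C86 and 24 to 32 in DMSO. The intestinal and hepatic sterol transporter gene Abcg5 had 4, 12 and 0 counts with BW723C86 and none in DMSO and was not tested.

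Of the RXR partners, Rxra had 216, 204 and 210 CPM in BW723C86 libraries and 146, 150 and 151 CPM in DMSO libraries and rose (log2 fold change 0.49, SE 0.04, adjusted p = 1.1e-06). Rxrb had 68.4, 57.6 and 59.5 CPM with BW723C86 and 65.4, 67.6 and 66.6 CPM in DMSO and did not pass (-0.11, SE 0.06, adjusted p = 0.21). It did pass as lower in 3 of 18 alternatives, those without BW723C86 replicate 1, with library totals and with trends in GC content and length removed (-0.21, adjusted p = 0.0017), and was at -0.07 without BW723C86 replicate 2. Among enzymes that make or remove oxysterols, the supply of LXR ligands, 3 of 5 tested rose and 1 fell (median log2 fold change 0.38). The shares over all genes tested were 21.3% and 20.7%. Cyp27a1, encoding sterol 27-hydroxylase, rose to 25 ± 1.33 CPM with BW723C86, against 16.2 ± 1.38 CPM in DMSO (log2 fold change 0.62, adjusted p = 4.3e-05). Hsd3b7, of bile acid synthesis, rose by 0.38 (adjusted p = 8.8e-05). Ch25h, encoding cholesterol 25-hydroxylase, had 38.7, 39.5 and 40.4 CPM in BW723C86 libraries and 47.5, 61.3 and 60.7 CPM in DMSO libraries and fell (-0.51, SE 0.09, adjusted p = 0.00035). Cyp7a1 had no count in any library.

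Genes that store and move cholesterol inside the cell rose in 6 of 13 cases, fell in 1 and did not pass in 6 (median log2 fold change 0.16). Among all genes tested, 21.3% rose and 20.7% fell. The lysosomal exporters Npc1 and Npc2 rose by 0.5 and 0.79 (adjusted p = 6.6e-07 and 2.7e-08), Lipa, encoding lysosomal acid lipase, by 1.29, and Soat1, which esterifies cholesterol for storage, by 0.58 (adjusted p = 3.1e-07). Plin2, encoding a coat protein of lipid droplets, fell to 391 ± 25.9 CPM with BW723C86, against 524 ± 4.85 CPM in DMSO (-0.42, adjusted p = 2.2e-05). The SREBP pathway had 7 of 12 genes higher, 3 lower and 2 not past (median 0.28). Insig1, which retains SREBP in the endoplasmic reticulum, rose by 0.72 (adjusted p = 1.2e-06) and Sqle, encoding squalene epoxidase, by 0.64 (adjusted p = 7.3e-06). Acly, which supplies acetyl-CoA, fell by 0.35 (adjusted p = 1.5e-05) and Elovl6, which lengthens saturated chains, by 0.6 (adjusted p = 0.0019), while the third, Mbtps2, encoding an SREBP protease, stood at -0.21 (adjusted p = 0.028). That call was lost in 6 of 18 alternatives, among them without BW723C86 replicate 3 and without DMSO replicate 1 or 3, and with trends in GC content and length removed Mbtps2 was at -0.01 (adjusted p = 0.91).

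Desaturases and elongases outside the member list rose in 5 of 8 cases, fell in 1 (Elovl6) and did not pass in 2 (median log2 fold change 0.47). For comparison, 21.3% of all genes tested rose and 20.7% fell. Fads1 and Fads2, the desaturases of polyunsaturated fatty acids, rose by 0.76 and 0.75 (adjusted p = 8.4e-08 and 1.9e-05). Elovl1, which lengthens very long chains, rose by 0.56, and Fads3, a desaturase of sphingoid bases, by 0.38. Relatives of the transporters were mixed, with 4 of 10 higher, 1 lower and 5 not past (median 0.13). Abcg2, encoding an exporter of drugs and urate, rose to 13.2 ± 1.89 CPM with BW723C86, against 8.33 ± 0.905 CPM in DMSO (0.67, SE 0.12, adjusted p = 0.00062). Abca9 rose by 0.69 and Abca3, a lipid transporter of surfactant in the lung, by 0.21 (adjusted p = 0.0056 and 0.0022), Abca3 by 0.11 with trends in GC content and length removed. Abca8b fell by 0.59 (adjusted p = 0.016) at a mean of 3.04 ± 0.503 CPM with BW723C86 and 4.58 ± 0.676 CPM in DMSO, and Abca2 rose by 0.16 (adjusted p = 0.023); the call on Abca8b was lost without BW723C86 replicate 1 and without DMSO replicate 1 or 2, and that on Abca2 without any 1 library other than BW723C86 replicate 2, with values of 0.07 to 0.17 over its alternatives.

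**Figure D4:**
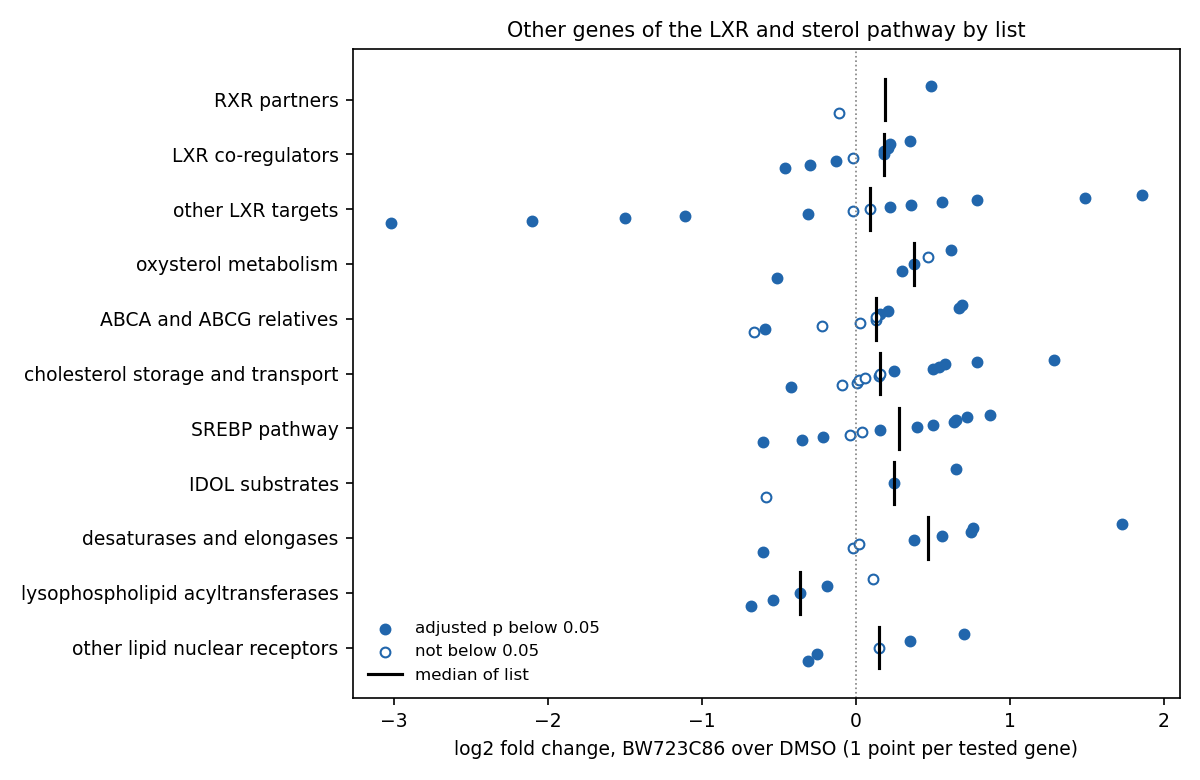
Log2 fold change, BW723C86 over DMSO, of every tested gene on 11 lists around LXR and sterol metabolism (1 point per gene, filled where the adjusted p was below 0.05; black bars are list medians; some genes, such as Elovl5 and Elovl6, stand on 2 lists). Other LXR targets spread from -3.02 (Apoc1) to 1.86 (Pltp), desaturases and elongases have the highest median (0.47), and lysophospholipid acyltransferases are the list with a negative median (-0.36).

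Profiles close to those of 3 members over the 6 libraries were also sought among 6797 or 6798 genes with a mean of at least 20 CPM, by the root mean square distance of centred log2 CPM. Closest to Abca1 were Fam120a (0.02), Sh3glb1 (0.023) and Gna13 (0.025), against a median distance of 0.19. Closest to Abcg1 were Leprot (0.012), Pdhb (0.014) and Ybx1 (0.014), and closest to Nr1h3 were Ints5 (0.034), Mien1 (0.041) and Mcm5 (0.046). The log2 fold changes of these neighbours were 0.25 to 0.29 for Abca1, 0.25 to 0.26 for Abcg1 and 0.09 to 0.14 for Nr1h3. Since they were picked for closeness over these same libraries, fold changes near those of the members follow from the choice.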

How the data were processed

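Per the labels' protocols, poly(A) RNA was made into dUTP-marked paired-end libraries. The tools that appear in the submitters' processing notes are HISAT2, StringTie, fastp and edgeR, beside the builds GRCh38 and GRCm39, without versions or roles. The authors deposited estimated counts for each gene; 0 of them changed when rounded. Small values favour multiples of 4 (4613 entries equal 4, 2904 equal 3), which leaves uncertain how many counts 1 fragment gave. Symbols (27005 identifiers) and exonic lengths came from GENCODE M21, and promoter windows from RefSeq; both describe GRCm38, so coordinates are given only with printed sequences.

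Genes were tested in R 4.3.3 with edgeR 4.0.16 (robust quasi-likelihood F test, TMM factors, default expression filter), two-sided, with Benjamini-Hochberg adjustment over all 15567 genes and a threshold of 0.05; SE is the log2 fold change over the square root of F. Total counts were 58841307 to 75931615 per library. Ratios of counts within a library were compared by exact permutation. Named were all 9 members, up to 4 genes of smallest p in each direction per list, lists of 3 or fewer in full, and the nearest profiles (a few genes are not reported here); Apoc1, Mboat7, Abcg5, Cyp7a1, Scd3, Scd4, Srebf2, Pparg, Ppara, Lyz2, Tmem119, Map2 and Nefl were named after their values were seen. Mmp8, Chil3, Fn1, Itgax, H2-Aa, Csf1r, Adgre1, Retnlg, Xcr1 and Cd3e were likewise named after their values were seen. The members and lists were chosen with earlier results of these data known. The labels do not say whether replicates were separate cultures, and the spread that p-values rest on may be technical. Every replicate pair differed by more than the sampling noise of counts, both as deposited and divided by 4. After that division, the chi-square over its degrees of freedom was 2.46 to 8.88. Both readings depend on the uncertain number of counts per fragment. Alternatives were 3 scalings, DESeq2 1.42.0, limma-voom (limma 3.58.1), 2 filters, a non-robust fit, counts divided by 4, a test against a fold of 1.2, a replicate block, the omission of 1 library at a time, and, added after seeing the data, removal of GC and length trends.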

Additional observations from a re-analysis of the deposited data

How the results depend on the processing

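Scd1, Scd2 and Mylip kept their direction and stayed past the threshold in all 18 alternatives. Abca1, Abcg1 and Srebf1 did so in 17, the exception being the test against a fold change of 1.2, under which 3 members and 3208 genes passed in place of 6 and 6534. Left-out libraries gave 5387 to 7153 genes and 6 to 7 members. Library totals in place of TMM gave 2581 genes higher and 4124 lower, against 3319 and 3215. Over left-out libraries Nr1h3 ranged over 0 to 0.19; without BW723C86 replicate 1 it stood at 0 to 2 decimals, on the negative side (adjusted p = 0.98; 0.13 to 1 over its alternatives). The Abcg1 to Abca1 ratio differed by -0.07 to 0.04 when libraries were left out, turning sign at 0.04 without BW723C86 replicate 2 (exact permutation p = 0.5). The Nr1h3 to Nr1h2, Scd2 to Scd1 and Srebf1 to Srebf2 ratios kept their direction. The cause of these shifts was not tested. Same-numbered libraries did not deviate together (correlations of 0.031, -0.025 and -0.005). That cannot tell whether they came from a shared culture, which the labels do not state. With the replicate block 6179 genes and 6 members passed. Genes of a few counts are limited by depth, the more so if a fragment is worth 4 counts.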

Other observations

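Co-regulators of LXR changed by small amounts and in both directions. Of 9 tested, 5 rose, 3 fell and 1 did not pass (median log2 fold change 0.18). Over all genes tested, 21.3% rose and 20.7% fell. The co-repressor gene Ncor1 averaged 110 ± 2 CPM with BW723C86 and 120 ± 3.91 CPM in DMSO (SD, n = 3 each) and fell by 0.13 (edgeR adjusted p = 0.04), a call lost in 7 of 18 alternatives, among them without BW723C86 replicate 3 and without DMSO replicate 1 or 3. Hdac3, the deacetylase of the co-repressor complex, rose by 0.22 (adjusted p = 0.0062). Tbl1x and Tbl1xr1, which encode exchange factors of that complex, fell by 0.46 and 0.3 (adjusted p = 2.6e-05 and 0.00013), Tbl1xr1 by 0.17 with trends in GC content and length removed. The co-activator genes Ncoa3 and Ncoa1 rose by 0.18 and 0.21 (adjusted p = 0.012 and 0.039), calls lost in 5 and 9 of 18 alternatives, for Ncoa3 without DMSO replicate 2 or 3 and for Ncoa1 without any 1 library other than BW723C86 replicate 1.

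Other nuclear receptor genes of lipid and retinoid signalling were also split, with 2 of 5 tested higher, 2 lower and 1 not past (median 0.15). The shares over all genes tested were 21.3% higher and 20.7% lower. Vdr, encoding the vitamin D receptor, had 11.9, 14.2 and 13 CPM in BW723C86 libraries and 7.85, 8.27 and 8.03 CPM in DMSO libraries and rose (0.7, SE 0.1, adjusted p = 7.7e-05), and Ppard rose by 0.35 (adjusted p = 0.00098). The retinoic acid receptor genes Rara and Rarg fell by 0.31 and 0.25 (adjusted p = 0.00014 and 0.0085). Pparg, encoding a receptor that acts upstream of LXR in macrophages, had 22.4, 24.6 and 22.8 CPM in BW723C86 libraries and 20.9, 18.8 and 23.4 CPM in DMSO libraries and did not pass (0.15, SE 0.09, adjusted p = 0.2). Ppara had no count in any library.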
